A study of Rattus norvegicus with 8 samples.

Results

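The mitochondrial ribosomal protein genes of the rat were followed in outflow veins of arteriovenous fistulas (AVF) wrapped with BAPN or vehicle scaffolds. Every gene whose listed name begins with Mrpl or Mrps and continues with a number and at most 1 letter was taken as a member. This gave 76 of 32623 listed genes, of which 45 carry large subunit names (Mrpl) and 31 small subunit names (Mrps). The family was selected on its measured difference between BAPN and vehicle veins, so the values of that comparison are given as a description and not as independent evidence of a direction.

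Mitochondria keep their own ribosome, the mitoribosome, which translates the few mRNAs encoded by mitochondrial DNA into core subunits of the respiratory chain and ATP synthase. Its ribosomal RNAs are made inside the organelle, whereas all of its proteins are encoded by nuclear genes, translated in the cytosol and imported. Some of these proteins descend from bacterial ribosomal proteins, and others joined the particle only in mitochondria. In the vein wall, the smooth muscle cells, fibroblasts, endothelial cells and immune cells all carry mitoribosomes, so the family marks no cell type.

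The veins came from 8 Sprague Dawley rats of both sexes, with no genetic modification named. In each rat the epigastric vein had been joined to the femoral artery, and a nanofiber scaffold had been wrapped around the vein next to the anastomosis at the same surgery. In 4 rats (BAPN 1 to 3, female, and BAPN 4, male) the scaffold carried β-aminopropionitrile (BAPN), an inhibitor of lysyl oxidases, the enzymes that crosslink elastin and collagen. In the other 4 rats (Vehicle 1 and 2, female, and Vehicle 3 and 4, male) it was a vehicle scaffold. All veins were collected after 21 days and their total RNA was sequenced after removal of ribosomal RNA. Each library is the whole tissue of 1 vein, so no value belongs to a single cell type.

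The number of reads counted on genes ranged from 45039451 to 52241007 in the BAPN libraries and from 19548203 to 22442050 in the vehicle libraries. Even the smallest BAPN library held 2.01 times as many reads as the largest vehicle library, so depth and treatment went together in all 8 libraries. Levels are given as CPM, read counts brought to a common library size with TMM scaling. A gene was tested if its base mean, the mean count over the 8 libraries after scaling for depth, was at least 100, which left 11682 genes. Of the 76 members 71 were tested (42 Mrpl and 29 Mrps), with base means from 263.2 for Mrps10 to 3466 for Mrpl17. A gene is called higher or lower where its FDR, the Benjamini-Hochberg adjusted p of edgeR's quasi-likelihood test across the 11682 genes, was below 0.05.

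Promoters of these genes are known to hold sites for nuclear respiratory factor 1 (NRF1), for ETS family factors such as GABP, and for YY1, and the windows below show where such letters lie. The RefSeq promoter table of build GRCr8 held 59 of the 75 member names, and 56 tested members were matched to it. The windows run from 100 bases before to 50 bases after the listed start, 5′ to 3′ on the strand of the gene. Capitals mark matches, on either strand, to CCGGAAG (ETS), to AAGATGGC (YY1) and to GCGCA and GCGC with any 1 base between them (NRF1). The first 4 windows belong to called members with 1 listed start and a match, and the other 3 to members that were not called and held an ETS and a YY1 match. They were chosen after the values were seen.
Mrpl57, chr15:36086357-36086506, plus strand: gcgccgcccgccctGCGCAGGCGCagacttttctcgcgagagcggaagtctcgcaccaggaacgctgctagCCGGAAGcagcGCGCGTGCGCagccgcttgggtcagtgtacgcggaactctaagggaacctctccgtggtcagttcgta
Mrpl20, chr5:171691098-171691247, plus strand: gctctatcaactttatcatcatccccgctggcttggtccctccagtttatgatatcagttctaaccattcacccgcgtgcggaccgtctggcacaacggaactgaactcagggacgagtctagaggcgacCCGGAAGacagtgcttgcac
Mrpl49, chr1:212779278-212779427, minus strand: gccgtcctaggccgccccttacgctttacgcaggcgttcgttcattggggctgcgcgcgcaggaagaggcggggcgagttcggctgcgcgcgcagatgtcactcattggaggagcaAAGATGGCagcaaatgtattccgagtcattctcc
Mrps7, chr10:101342542-101342691, plus strand: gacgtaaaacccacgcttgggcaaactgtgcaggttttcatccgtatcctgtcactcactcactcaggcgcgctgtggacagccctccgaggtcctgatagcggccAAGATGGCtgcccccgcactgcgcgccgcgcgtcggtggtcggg
Mrps27, chr2:32474104-32474253, plus strand: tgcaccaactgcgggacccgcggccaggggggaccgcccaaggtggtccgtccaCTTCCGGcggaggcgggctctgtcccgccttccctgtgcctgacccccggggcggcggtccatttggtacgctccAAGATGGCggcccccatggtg
Mrps10, chr9:21122404-21122553, minus strand: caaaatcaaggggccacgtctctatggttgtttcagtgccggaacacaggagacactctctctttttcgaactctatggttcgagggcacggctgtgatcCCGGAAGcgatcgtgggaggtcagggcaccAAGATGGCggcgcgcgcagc
Mrps18b, chr20:2842906-2843055, plus strand: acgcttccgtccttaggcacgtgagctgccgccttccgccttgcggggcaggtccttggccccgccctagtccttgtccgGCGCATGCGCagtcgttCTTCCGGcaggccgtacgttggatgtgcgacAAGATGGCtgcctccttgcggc

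The Mrpl57 window held 2 NRF1 matches and 1 ETS match upstream of the start. The windows of Mrpl49, Mrps7, Mrps27, Mrps10 and Mrps18b shared the letters AAGATGGC downstream of the start. In the table's full windows, from 250 bases before to 50 after the start, YY1 letters were found in 14 of 56 members (25%), against 5.9% of 8959 tested genes with a promoter and 3.17% of all 33469 listed promoters. Those letters began within the 50 bases after the start in 11 of the 14 members (78.6%) and in 277 of 530 tested genes that held them (52.3%). ETS letters stood in 18 members (32.1%), in 18.5% of tested genes and in 8.75% of all promoters. NRF1 letters stood in 8 members (14.3%), in 10.5% of tested genes and in 4.25% of all promoters. The median log2 fold change, BAPN against vehicle, was 0.37 in members with YY1 letters and 0.36 in those without, 0.37 and 0.36 for ETS, and 0.24 and 0.37 for NRF1. These are matches of letters only, and binding was not measured.

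The summed level of the Mrpl genes was 27.6% higher in the BAPN veins and that of the Mrps genes 25.1% higher. Over the tested Mrpl genes the sum was 1125, 1171, 1436 and 1269 CPM in BAPN 1 to 4 and 920.8, 1051, 1040 and 907.2 CPM in Vehicle 1 to 4. All BAPN libraries lay above all vehicle libraries, with 1250 ± 137.6 against 979.8 ± 76.26 CPM (SD, n = 4 each). Over the tested Mrps genes the sum was 648.2, 683.4, 860.5 and 734.8 CPM in BAPN 1 to 4 and 562.2, 605.3, 613 and 558.9 CPM in Vehicle 1 to 4. Here too the groups did not overlap, with 731.7 ± 92.92 against 584.8 ± 28.27 CPM. The lowest BAPN sums, those of BAPN 1, were close to the highest vehicle sums, while BAPN 3 stood above all other libraries. The ratio of the Mrpl to the Mrps sum was 1.711 ± 0.0297 in the BAPN and 1.674 ± 0.0525 in the vehicle libraries, ranges that overlapped. In such bulk samples, a different number of cells of a type and a different amount of RNA per cell cannot be told apart.

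**Figure D1:**
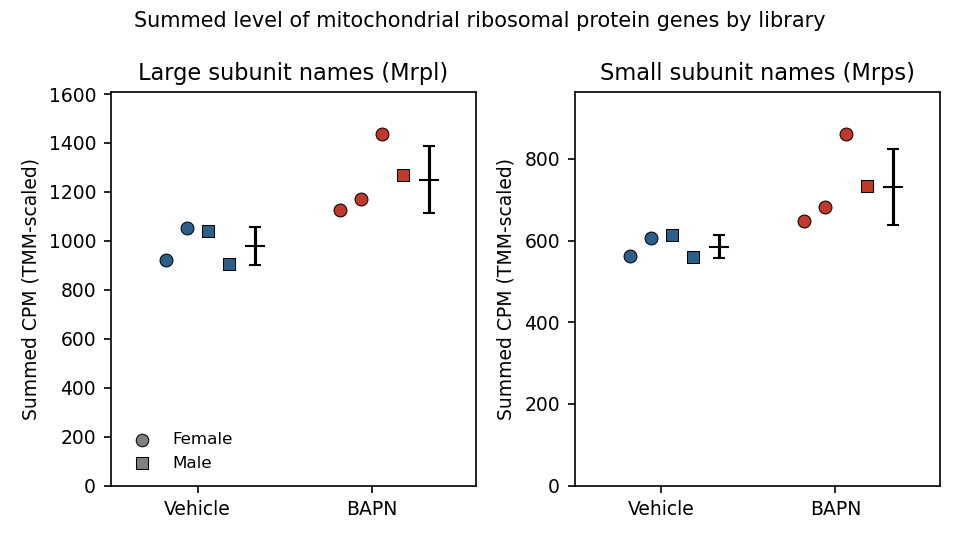
Summed TMM-scaled CPM of the tested Mrpl genes (left) and Mrps genes (right) in each library, circles for females and squares for males, with the mean and SD beside each group (n = 4). All 4 BAPN libraries lie above all 4 vehicle libraries in both panels, and BAPN 3 is the highest point at 1436 and 860.5 CPM.

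Gene by gene, most members leaned towards BAPN and fewer passed the test. Of 42 tested Mrpl genes 13 were called higher and 0 lower, and of 29 tested Mrps genes 5 were called higher and 0 lower. Over all 11682 tested genes 7.5% were called higher (876 genes) and 9.25% lower (1081 genes). At an unadjusted p under 0.05 edgeR gave 21 Mrpl and 17 Mrps genes higher and 0 lower, beside 17.4% and 18.4% of all tested genes. DESeq2 called 17 and 12 higher and 0 lower, beside 12.3% and 15.1% of all tested genes. The log2 fold change was above 0 in 68 of 71 members, against 51.6% of all tested genes. Its median was 0.36 over the Mrpl genes (from -0.13 to 0.85) and 0.40 over the Mrps genes (from -0.15 to 0.69), beside 0.02 over all tested genes. In 17 Mrpl and 12 Mrps genes all BAPN libraries lay above all vehicle libraries, an order found in 12.7% of all tested genes. In 0 members did all BAPN libraries lie below, an order found in 11.9% of all tested genes. These shares restate the difference for which the family was picked.

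How many members were called turned on single libraries. Without Vehicle 1, 0 Mrpl and 0 Mrps genes were called, and the share of all tested genes called higher was then 1.28%. In that fit edgeR gave 17 and 13 higher at an unadjusted p under 0.05 (13.5% of all tested genes), and DESeq2 called 11 and 6 higher (7.98%). Without BAPN 3 the counts were 2 and 1, and the share over all tested genes was 2.59%. Among the other BAPN libraries, the Mrpl and Mrps counts were 8 and 5 without BAPN 1 (5% of all tested genes), 4 and 3 without BAPN 2 (4.05%), and 3 and 2 without BAPN 4 (3.36%). Among the other vehicle libraries, they were 10 and 7 without Vehicle 2 (7.94%), 5 and 2 without Vehicle 3 (4.42%), and 4 and 3 without Vehicle 4 (3.57%). The direction moved less: the median log2 fold change ranged from 0.27 to 0.41 over the Mrpl genes and from 0.32 to 0.46 over the Mrps genes in these 8 fits, lowest without BAPN 3 for both. The sign was positive in all 8 fits for 62 of 71 members, negative in all 8 for Mrpl51 and Mrps2, and mixed for Mrpl10, Mrpl34, Mrpl37, Mrps16, Mrps18a, Mrps24 and Mrps26. With libraries scaled by their totals alone, 5 Mrpl and 4 Mrps genes were called, and 504 of 1665 called genes were higher in BAPN, against 876 of 1957 with TMM scaling.

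**Figure D2:**
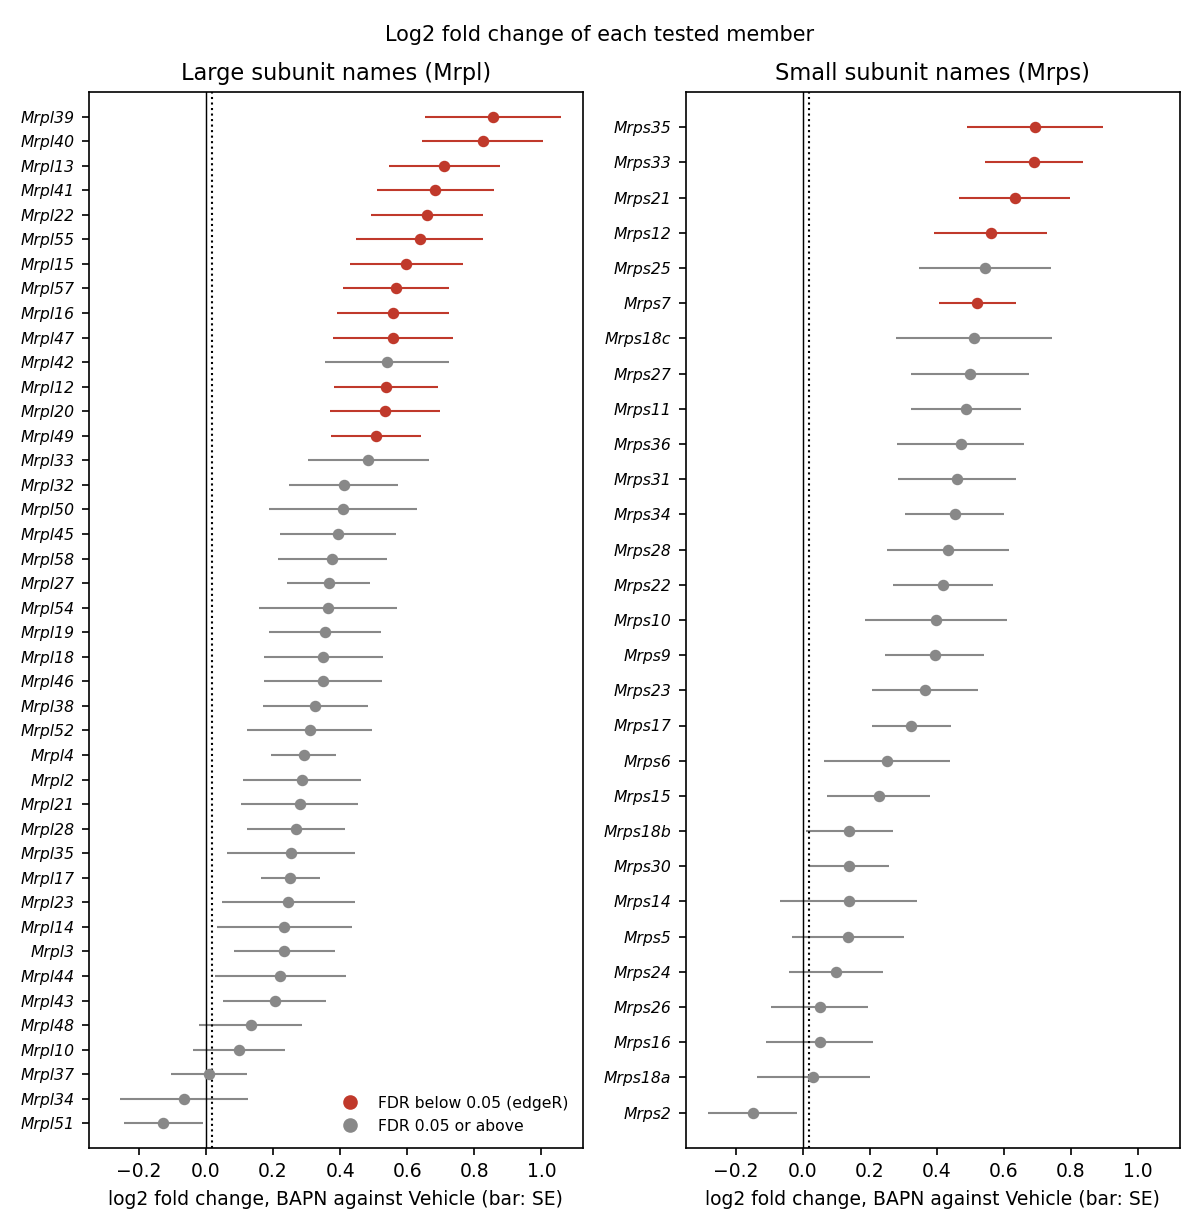
Log2 fold change of each tested member, BAPN against vehicle, with its standard error (bars), for Mrpl genes (left) and Mrps genes (right). Red points have an FDR below 0.05, and the dotted line is the median of all tested genes (0.02). Most points lie to the right of it, with Mrpl51, Mrpl34 and Mrps2 below 0.

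The libraries of a group were not alike. BAPN 3 was the highest of the 8 libraries for 55 of 71 members and the highest BAPN library for 59. BAPN 1 was the lowest BAPN library for 42 members. Among the vehicle libraries, Vehicle 4 was the lowest of all 8 for 28 members and Vehicle 1 for 22. The tested members held from 0.1815% to 0.2211% of the counted reads in the BAPN libraries and from 0.14% to 0.1751% in the vehicle libraries.

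**Figure D3:**
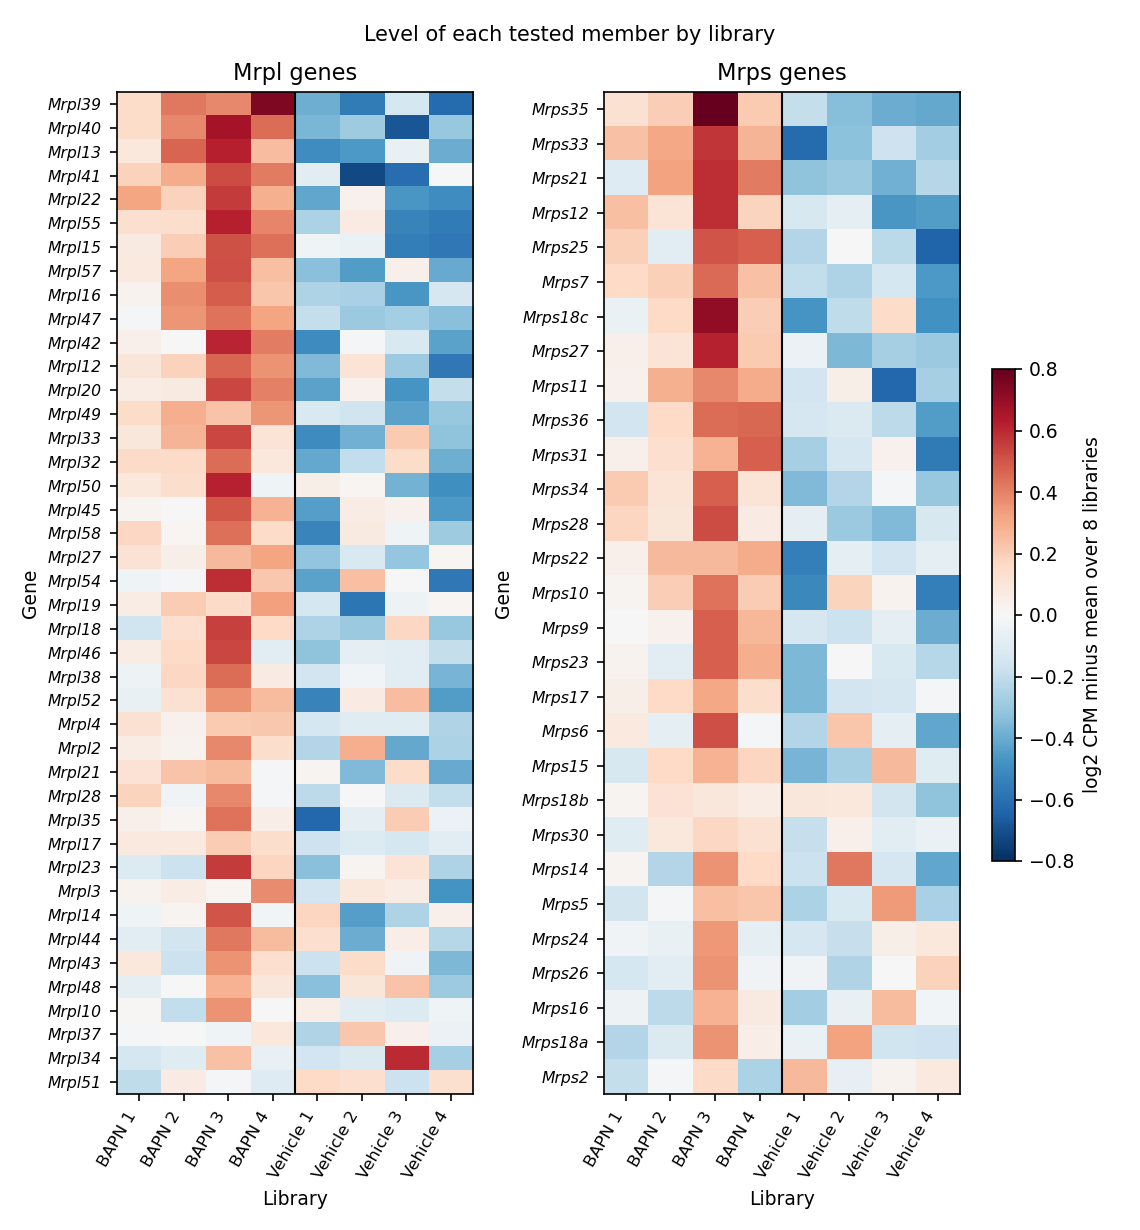
Level of each tested member in each library, as log2 CPM minus the mean over the 8 libraries, with Mrpl genes (left) and Mrps genes (right) ordered by log2 fold change. BAPN 3 holds the highest cell in 55 rows of both panels, Vehicle 4 the lowest in 28 and Vehicle 1 in 22.

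Among 23 tested large subunit proteins with a bacterial counterpart, 7 were called higher, 0 lower, and the median log2 fold change was 0.35. Over all tested genes 7.5% were called higher and 9.25% lower. Mrpl13, which binds the large ribosomal RNA, measured 29.7, 38.64, 43.08 and 33.29 CPM in BAPN 1 to 4 and 19.85, 20.36, 26.85 and 21.31 CPM in Vehicle 1 to 4. The groups did not overlap, and the log2 fold change was 0.71 (SE 0.16, FDR 0.0202). Mrpl22, a protein of the peptide exit tunnel, measured 18.92, 17.3, 22.44 and 18.51 CPM in BAPN 1 to 4 and 11.42, 15.62, 11.03 and 10.8 CPM in Vehicle 1 to 4. Vehicle 2 stood nearest to the BAPN libraries, and the log2 fold change was 0.66 (SE 0.17, FDR 0.0293). Mrpl13 lost its call without BAPN 3 or Vehicle 1 (FDR up to 0.0628), and Mrpl22 kept it only without BAPN 2 or Vehicle 2 (FDR up to 0.0809).

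The other called genes of this group, named after their values were seen, were Mrpl12, Mrpl15, Mrpl16, Mrpl20 and Mrpl47. Their log2 fold changes ran from 0.53 in Mrpl20 to 0.60 in Mrpl15. Mrpl12 forms the stalk that recruits translation factors, and it was the only called member whose groups overlapped, since Vehicle 2 (38.9 CPM) lay above BAPN 1 (38.48 CPM). Mrpl20 just passed the threshold with an FDR of 0.0495. Mrpl17, the member with the most reads, measured 114.58, 114.86, 125.33 and 119.74 CPM in BAPN 1 to 4 and 96.91, 100.58, 98.61 and 102.42 CPM in Vehicle 1 to 4. Its groups did not overlap and its spread was narrow, but the log2 fold change of 0.25 (SE 0.09) had an FDR of 0.0711. Mrpl34 was at 22.21 to 28.81 CPM in BAPN and 20.3 to 37 CPM in vehicle veins, with a log2 fold change of -0.07 (FDR 0.833) that became 0.17 without Vehicle 3.

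The tested large subunit proteins that are particular to mitochondria numbered 20, counting Mrps30 and Mrps18a, which sit in the large subunit despite their names. Of these 5 were called higher and 0 lower, beside 7.5% and 9.25% of all tested genes, and the median log2 fold change was 0.36. Mrpl39, which resembles part of a threonyl-tRNA synthetase, measured 13.94, 16.86, 16.42 and 21.12 CPM in BAPN 1 to 4 and 9.6, 8.55, 11.41 and 8.22 CPM in Vehicle 1 to 4. Every BAPN value exceeded every vehicle value, with the male BAPN 4 on top, and the log2 fold change of 0.85 (SE 0.20, FDR 0.0187) was the largest of the 71 members. Mrpl40 measured 15.43, 18.18, 22.07 and 19.01 CPM in BAPN 1 to 4 and 10.81, 11.42, 8.67 and 11.27 CPM in Vehicle 1 to 4. Its groups were also apart, with a log2 fold change of 0.82 (SE 0.18, FDR 0.0161). Without Vehicle 1 neither was called (FDR 0.0539 for Mrpl39 and 0.0504 for Mrpl40), and both stayed called when any other library was left out. Mrpl41 measured 26.82, 29.07, 33.93 and 31.56 CPM in BAPN 1 to 4 and 22.14, 14.33, 15.49 and 23.6 CPM in Vehicle 1 to 4. Vehicle 2 and Vehicle 3 were the low libraries here, and the log2 fold change of 0.68 (SE 0.17, FDR 0.0347) stayed called only without BAPN 1 or Vehicle 4.

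Mrpl57 and Mrpl49, the other called genes of this group, had log2 fold changes of 0.57 (FDR 0.0357) and 0.51 (FDR 0.032). Mrpl52 and Mrpl54, next in read number among the Mrpl genes, were not called. Mrpl52 ranged from 57 to 76.39 CPM in BAPN and from 41.06 to 70.41 CPM in vehicle veins (log2 fold change 0.31, FDR 0.257), and Mrpl54 from 43.29 to 66.59 and from 29.81 to 52.34 CPM (0.36, FDR 0.235). The group also held members with log2 fold changes near or below 0. Mrpl37 was at 34.73 ± 1.292 CPM in BAPN and 34.52 ± 4.536 CPM in vehicle veins (log2 fold change 0.01, SE 0.11). Mrpl51 measured 28.02, 33.84, 32.15 and 30.01 CPM in BAPN 1 to 4 and 36.1, 35.44, 28.62 and 35.35 CPM in Vehicle 1 to 4. Only Vehicle 3 fell within the BAPN range, and the log2 fold change was -0.13 (SE 0.12, FDR 0.456).

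Of 16 tested small subunit proteins with a bacterial counterpart, 3 were called higher and 0 lower, beside 7.5% and 9.25% of all tested genes. The median log2 fold change was 0.36. Mrps7, which helps to build the head of the small subunit, measured 47.42, 48.44, 57.98 and 49.95 CPM in BAPN 1 to 4 and 36.99, 35.68, 38.47 and 30.81 CPM in Vehicle 1 to 4. The groups were well apart, with a log2 fold change of 0.52 (SE 0.12, FDR 0.0206). Mrps21 measured 31.28, 42.03, 50.63 and 44.81 CPM in BAPN 1 to 4 and 26.92, 27.38, 25.8 and 28.76 CPM in Vehicle 1 to 4. The vehicle libraries lay close together and the BAPN libraries did not, with a log2 fold change of 0.63 (SE 0.17, FDR 0.0247). Mrps12, a protein of the decoding centre, measured 21.99, 20.06, 28 and 21.02 CPM in BAPN 1 to 4 and 17.04, 17.64, 13.47 and 13.62 CPM in Vehicle 1 to 4. Its groups did not overlap either, with a log2 fold change of 0.56 (SE 0.17, FDR 0.0417). Mrps7 lost its call without BAPN 3 or Vehicle 1 (FDR up to 0.056), Mrps21 kept it only without BAPN 1, Vehicle 2 or Vehicle 4 (up to 0.0682), and Mrps12 only without Vehicle 2 (up to 0.101).

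The other members of this group were not called. Mrps15 ranged from 40.49 to 53.76 CPM in BAPN and from 34.22 to 52.99 CPM in vehicle veins (log2 fold change 0.23, FDR 0.316). Mrps16 had a log2 fold change of 0.05 (SE 0.16). Mrps2 measured 22.38, 25.23, 28.35 and 21.44 CPM in BAPN 1 to 4 and 30.57, 24.37, 26.01 and 26.99 CPM in Vehicle 1 to 4. Its ranges overlapped, and its log2 fold change of -0.15 (SE 0.13, FDR 0.431) was the lowest of the 71 members.

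Of 10 tested small subunit proteins particular to mitochondria, 2 were called higher and 0 lower, beside 7.5% and 9.25% of all tested genes. The median log2 fold change was 0.46. Mrps33 measured 23.4, 24.61, 29.55 and 24.07 CPM in BAPN 1 to 4 and 12.97, 15.87, 17.72 and 16.43 CPM in Vehicle 1 to 4. A clear gap separated the groups, and the log2 fold change was 0.69 (SE 0.15, FDR 0.017). Mrps35 measured 17.36, 18.28, 27.88 and 18.41 CPM in BAPN 1 to 4 and 14, 12.6, 12.12 and 11.99 CPM in Vehicle 1 to 4. BAPN 3 stood far above the other BAPN libraries, and the log2 fold change of 0.69 (SE 0.20, FDR 0.0315) became 0.51 (FDR 0.0545) without it. Mrps35 stayed called only without BAPN 1, BAPN 2 or Vehicle 2, and Mrps33 lost its call only without Vehicle 1 (FDR 0.0525). Mrps25 ranged from 17.97 to 27.03 CPM in BAPN and from 12.23 to 19.13 CPM in vehicle veins (log2 fold change 0.54, FDR 0.0666), and it was called without Vehicle 2 (FDR 0.0498). Mrps26 had a log2 fold change of 0.05 (SE 0.14, FDR 0.819).

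**Figure D4:**
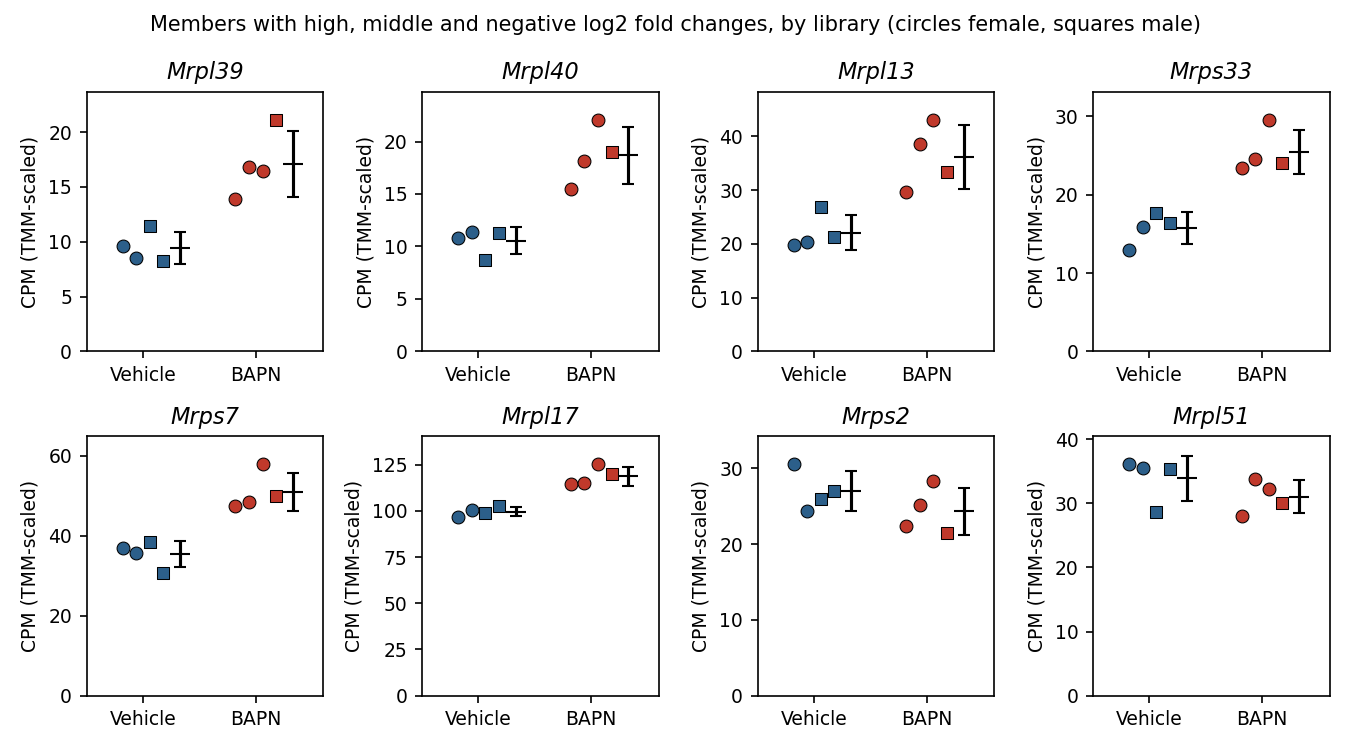
TMM-scaled CPM of 8 members in each library, circles for females and squares for males, with the mean and SD of each group (n = 4) and an axis from 0. Mrpl39, Mrpl40, Mrpl13, Mrps33, Mrps7 and Mrpl17 show no overlap between the groups, while Mrps2 and Mrpl51 do and have lower BAPN means.

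Mrps18a, Mrps18b and Mrps18c are paralogs of bacterial protein S18, and they sit in different places of the mitoribosome. Despite this kinship Mrps18a and Mrps18b were grouped above as particular to mitochondria, and only Mrps18c as having a bacterial counterpart. Mrps18c, which holds the bacterial position, measured 11.66, 13.51, 19.74 and 13.88 CPM in BAPN 1 to 4 and 8.71, 10.48, 13.38 and 8.65 CPM in Vehicle 1 to 4. Vehicle 3 fell among the BAPN libraries, and the log2 fold change was 0.51 (SE 0.23, FDR 0.122). Mrps18b measured 18.69 ± 0.524 CPM in BAPN and 16.98 ± 2.286 CPM in vehicle veins (log2 fold change 0.14, SE 0.13, FDR 0.472). Mrps18a of the large subunit measured 28.22 ± 5.227 and 27.6 ± 4.662 CPM (0.03, SE 0.17, FDR 0.906). The difference among the 3 paralogs was not tested. Mrpl55 and Mrps36 were put in no group, the latter because it is known as a subunit of the 2-oxoglutarate dehydrogenase complex. Mrpl55 was called higher (log2 fold change 0.64, FDR 0.0436), and Mrps36 had a log2 fold change of 0.47 (FDR 0.0788).

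Of the 5 members that were not tested, Mrpl1 had 5, 29, 16 and 9 reads in BAPN 1 to 4 and 4, 7, 8 and 0 reads in Vehicle 1 to 4. Mrpl36 had 5 reads in all BAPN and 1 in all vehicle libraries, and Mrpl53 had 0 reads in all 8 libraries. The name Mrps21l is listed for a pair of genes, which had 5 and 1 reads in the BAPN libraries and 0 in the vehicle libraries. A further 3 genes are listed in lower case and fall outside the naming rule. Of these mrpl24 had a log2 fold change of 0.45 (FDR 0.0422), mrpl11 of 0.30 (FDR 0.288) and mrpl9 of 0.27 (FDR 0.265). RefSeq lists a named copy or pseudogene for 23 of the 75 member names, among them the called Mrpl15, Mrpl40, Mrpl41, Mrpl47 and Mrps21. Their counts are uncertain, since how the authors counted reads shared between copies is not given in the sources used here.

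The sex of the rats was not used to pick the family. In a model with treatment and sex, 0 of 71 members were called between males and females (edgeR), against 0.00856% of all tested genes (1 gene). At an unadjusted p under 0.05 there were 0 members and 221 of all tested genes. The median log2 difference, male minus female, was 0.01 over the members, and 36 of 71 were higher in males. With only 1 male in the BAPN group, the treatment difference was also compared between the sexes by an interaction term, chosen after the data were seen. Since the male BAPN arm is that 1 rat, this term cannot show whether the treatment difference is alike in both sexes. Its median log2 value was 0.03 over the members and -0.05 over all tested genes. Sex and treatment were unevenly mixed: with sex in the model 3 Mrpl and 3 Mrps genes were called higher, beside 3.33% of all tested genes. In the females alone 0 and 0 were called, beside 0.3% of all tested genes (9 and 7 members at an unadjusted p under 0.05, beside 11.8% of all, and 5 and 1 called by DESeq2, beside 6.05%). Every female BAPN sum exceeded every female vehicle sum for both subunits. That order follows from the lack of overlap over all 8 libraries and is no separate check.

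Some members start beside a gene that is read in the opposite direction. By their RefSeq positions, 17 of 56 matched members (30.4%) had an opposite-strand start within 1000 bases, against 16.5% of 8959 tested genes. Of the neighbours 12 were tested, among them Mrpl46 and Mrps11, which are members themselves. A log2 fold change above 0 was found in 9 of the 12, against 51.6% of all tested genes. Of the 12, 2 were called higher and 0 lower, beside 7.5% and 9.25% of all tested genes. Their median was 0.37, beside 0.02 over all tested genes. The called neighbours were Tcp1, a chaperonin subunit gene beside Mrpl18 (log2 fold change 0.50, FDR 0.0136), and Psma2, a proteasome subunit gene beside Mrpl32 (0.57, FDR 0.0169). Mrpl18 and Mrpl32 had log2 fold changes of 0.35 and 0.41 and were not called. Mrpl46 and Mrps11 are read away from each other with 234 bases between their starts, count as neighbours of each other, and had log2 fold changes of 0.35 (FDR 0.153) and 0.49 (FDR 0.0654).

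The lists of genes that build and serve the mitoribosome held 0 or 1 called gene each, where 7.5% of all tested genes were called higher. Of 5 tested mitoribosomal proteins with other names 1 was called higher, Chchd1 (log2 fold change 0.63, FDR 0.049), and the median was 0.44. Of 22 tested genes for assembly and ribosomal RNA modification 1 was called higher, Mterf4 (0.73, FDR 0.0446), a partner of the ribosomal RNA methyltransferase Nsun4, and the median was 0.26. In fits that left out 1 library, both were called only without Vehicle 2 (FDR up to 0.126 and 0.111). At an unadjusted p under 0.05 edgeR gave 3 of the 5 and 7 of the 22 genes, all higher, and DESeq2 called 2 and 4. Of 13 tested translation factors and 16 tested mitochondrial aminoacyl-tRNA synthetases, which charge the organelle's tRNAs, 0 were called, with medians of 0.21 and 0.05. At an unadjusted p under 0.05 edgeR gave 3 and 1 of them, all higher, and DESeq2 called 0 and 1. The translation factors with the highest mean CPM, Oxa1l and Tufm, had log2 fold changes of 0.00 and 0.21, and the synthetases with the highest, Iars2 and Tars2, of -0.21 and -0.04.

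Among 14 tested genes for mitochondrial transcription, RNA processing and DNA upkeep 1 was called higher. It was Slirp, whose protein stabilises mitochondrial mRNAs, at 18.86 ± 1.702 CPM in BAPN and 10.28 ± 1.123 CPM in vehicle veins (log2 fold change 0.87, SE 0.15, FDR 0.00965), and it stayed called whichever library was left out. The median of that list was 0.37, and 5 of the 14 were higher at an unadjusted p under 0.05 and 5 by DESeq2. Of 9 tested nuclear regulators of mitochondrial genes 0 were called by edgeR (2 at an unadjusted p under 0.05) and 1 by DESeq2, and the median was -0.09. Log2 fold changes above 0 were those of Myc (0.42, FDR 0.104), Esrra (0.31, FDR 0.316) and Nrf1 (0.29, FDR 0.0808), the last with all BAPN above all vehicle libraries. Below 0 were Pprc1 (-0.03), the GABP subunit genes Gabpa (-0.09), Gabpb1 (-0.11) and Gabpb2 (-0.69), Yy1 (-0.10) and Ppargc1b (-0.65), with FDR from 0.149 to 0.917.

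The products that the mitoribosome makes are encoded by 13 genes of mitochondrial DNA. Of these 2 were called higher and 0 lower, beside 7.5% and 9.25% of all tested genes, with a median log2 fold change of 0.50. At an unadjusted p under 0.05 edgeR gave 6 higher, and DESeq2 called 5. Mt-nd4 and Mt-nd3, both complex I subunits, had log2 fold changes of 0.96 (SE 0.21, FDR 0.0246) and 0.74 (SE 0.20, FDR 0.0462). The summed level of the 13 genes was 45180, 50580, 81040 and 75140 CPM in BAPN 1 to 4 and 47380, 52280, 42740 and 46730 CPM in Vehicle 1 to 4. BAPN 3 and BAPN 4 stood above all others, and BAPN 1 lay below 3 vehicle libraries. In fits that left out 1 library the count called was 0 without BAPN 3, BAPN 4, Vehicle 1 or Vehicle 3, 1 without BAPN 2, Vehicle 2 or Vehicle 4, and 3 without BAPN 1.

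Of 74 tested nuclear genes for oxidative phosphorylation (OXPHOS) subunits, which assemble with those products, 17 were called higher and 0 lower by edgeR. DESeq2 called 29 and 0, and the median was 0.35. Over all tested genes edgeR called 7.5% higher and 9.25% lower, and DESeq2 12.3% and 15.1%. Ndufs5 (log2 fold change 1.44, FDR 0.00206) and Ndufb3 (0.89, FDR 0.00863), both of complex I, stayed called whichever library was left out. The names Uqcrb of complex III and Cox6b1 of complex IV each stand for a pair of tested genes that did not move alike, and their counts are uncertain. For Uqcrb the log2 fold changes were 1.97 (39.75 CPM in BAPN and 10.17 CPM in vehicle veins, FDR 0.000367) and 0.05 (33.41 and 32.3 CPM, FDR 0.85). For Cox6b1 they were 0.94 (117.4 and 61.26 CPM, FDR 0.00892) and -0.28 (8.813 and 10.73 CPM, FDR 0.379). Of 68 tested cytosolic ribosomal protein genes, which build the other ribosome of the cell, 35 were called higher and 0 lower by edgeR and 50 and 0 by DESeq2, with a median of 0.59. Their summed level was 27800, 28230, 42660 and 30010 CPM in BAPN 1 to 4 and 18950, 22480, 23650 and 19580 CPM in Vehicle 1 to 4, again with BAPN 3 on top and no overlap. In this list Rpl21, Rpl32, Rps4x, Rps10 and Rps27a each stand for a pair of tested genes, and their counts are uncertain. The log2 fold changes were 0.70 and -0.015 for Rpl21 and 0.71 and 0.17 for Rps4x. Both genes named Rps10 and both named Rps27a were called. Without Vehicle 1 the counts called higher fell to 4 OXPHOS and 5 cytosolic ribosomal genes, without BAPN 3 they were 6 and 18, without BAPN 4 5 and 15, without Vehicle 3 8 and 23, and without Vehicle 4 7 and 13. These lists share the 8 libraries with the members, so their values stand side by side and are not independent of each other.

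**Figure D5:**
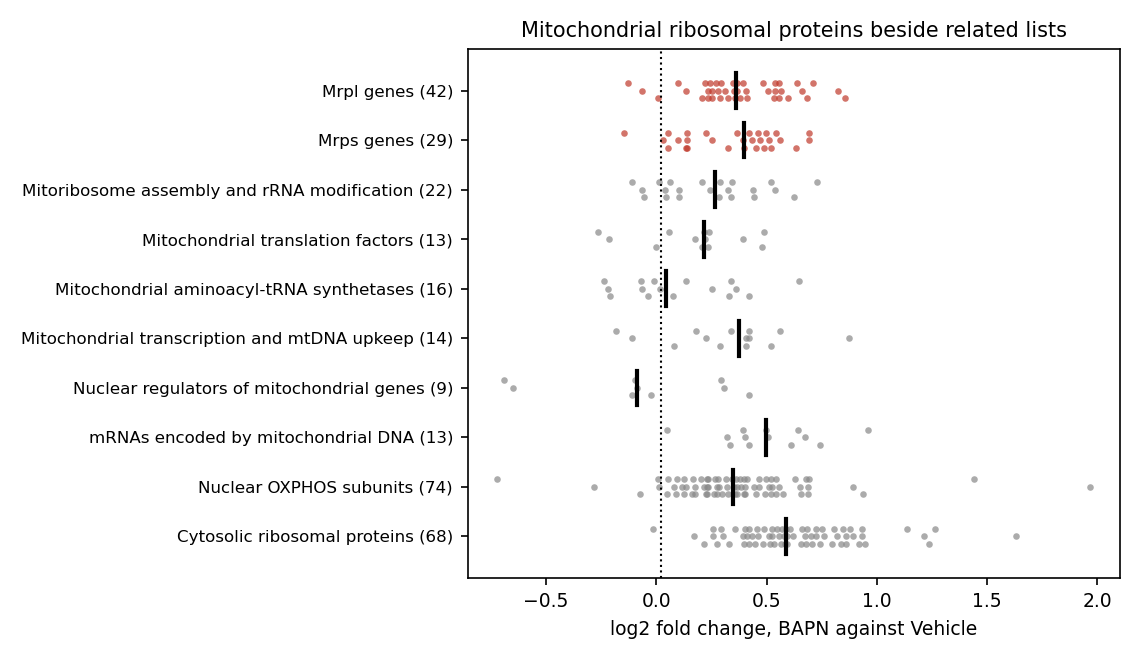
Log2 fold change, BAPN against vehicle, of each tested gene (points, number in brackets) in the Mrpl and Mrps families (red) and in related lists (grey), with list medians as black bars and the median of all tested genes as a dotted line. The cytosolic ribosomal proteins have the highest median (0.59), the tRNA synthetases (0.05) and nuclear regulators (-0.09) the lowest.

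Some cell type markers also differed between the groups. Over all tested genes 7.5% were called higher and 9.25% lower. Of 6 tested smooth muscle markers 4 were called lower (Myh11, Cnn1, Smtn and Des). Their list summed to 1630 to 4153 CPM in BAPN and 3110 to 5852 CPM in vehicle veins. The paper also reports lower Myh11 RNA, but more MYH11 protein staining and less smooth muscle actin staining in BAPN veins. Of 4 tested endothelial markers 2 were called lower (Vwf and Tek), with 185.5 to 357.8 against 455.7 to 1162 CPM. Of 5 tested T cell markers 2 were called higher (Cd2 and Cd8a), with 37.09 to 90.37 against 16.71 to 37.91 CPM. Of 2 tested B and plasma cell markers Cd79b was called higher, with list sums of 5.656 to 158.1 against 9.029 to 31.78 CPM, and of 4 tested adipocyte markers Plin1 was called lower. The adipocyte median was -1.52 and DESeq2 called 3 lower, while the list sum went the other way, at 1059 to 2924 against 436.2 to 1693 CPM, since Fabp4 (1690 against 1040 CPM on average) held most of it. The 6 fibroblast markers (13460 to 20270 against 15150 to 55200 CPM), 6 macrophage markers (2515 to 3147 against 1747 to 2885 CPM) and 2 skeletal muscle markers (13.73 to 27.59 against 16.01 to 51.8 CPM) had 0 calls by edgeR, with 3, 0 and 1 of them lower at an unadjusted p under 0.05 and the same numbers called by DESeq2. Of 14 tested cell cycle genes only Pcna was called (log2 fold change 0.66, FDR 0.0157). BAPN 3, the library highest for most members, had the lowest smooth muscle (1630 CPM) and fibroblast (13460 CPM) sums and the highest T cell sum (90.37 CPM). BAPN 4, next in the Mrpl and Mrps sums, had a smooth muscle sum of 1642 CPM and the lowest endothelial sum (185.5 CPM). Its T cell sum (37.09 CPM) was the lowest of the BAPN libraries. In fits that left out 1 library, Myh11, Tek, Cd2 and Pcna stayed called in all 8, and the other marker genes named lost their call in 4 to 7 of the 8. Smooth muscle and endothelial marker reads were present in every library. The part of cell makeup in the values of the family was not tested. With the reads of the BAPN libraries drawn down at random to the mean vehicle total, the median log2 fold changes were 0.36 (Mrpl) and 0.38 (Mrps), and 9 and 7 members were called higher, beside 7.1% of all tested genes.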

How the data were processed

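Total RNA of 8 veins was sequenced as stranded libraries without ribosomal RNA. The authors deposited raw read counts per gene, not normalized, for 32623 Ensembl genes with names. The submitters' processing notes name bcl2fastq 2.17, Trim Galore and STAR. The counting tool, strand setting and genome build are not given in the sources used here. Each library is 1 rat, grouped by its labels. Libraries of a group differed by more than counting noise (chi-square per degree of freedom from 68.6 to 321).

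Base means came from DESeq2 1.42.0 size factors and had to reach 100, the study's limit. Log2 fold changes and FDR came from edgeR 4.0.16 in R 4.3.3 (TMM, quasi-likelihood test, treatment alone), and standard errors from limma 3.58.1 (voom). Of these steps, the edgeR fit with treatment alone was tested on simulated data. Members, gene lists and tests were chosen with earlier results of these data known. Members were named for the 5 highest or 3 lowest log2 fold changes or the 3 highest CPM of their subunit, or as Mrps18 paralogs, genes of related lists from those called or with the 2 highest mean CPM, and the nuclear regulators in full after their values were seen. Promoters and neighbours came from RefSeq tables of GRCr8, which may not be the authors' build. Protein length and identity were not analysed here, and since CPM is not per length, the order of genes by CPM is one of read number and served only to choose names. Alternatives were other scalings, filters, tools and models, thinned libraries, and omission of each library.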

Additional observations from a re-analysis of the deposited data

Results flagged for a closer look

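In 4 of 52 sets of 4 libraries (the 24 members that the naming rule chose and both sums, in each group, other members not being screened) 1 library stood apart by Dixon's test, which chance alone does in about 1 in 20 sets. Mrps35 was at 27.88 CPM in BAPN 3, against 17.36 to 18.41 CPM in the other BAPN libraries. Vehicle 2 gave 15.62 CPM for Mrpl22, and the remaining vehicle libraries gave 10.8 to 11.42 CPM. In Vehicle 3, Mrpl34 was at 37 CPM, against 20.3 to 22.54 CPM, and Mrpl51 was at 28.62 CPM, against 35.35 to 36.1 CPM. The causes were not tested.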

How the results depend on the processing

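The medians of the log2 fold change and the ratios of the summed levels (1.22 and 1.197 with total counts only, 1.276 and 1.251 as reported, for Mrpl and Mrps) stayed within the spread between replicates under every alternative run, and 0 members were called lower under any of them. The counts called higher did not stay. The Mrpl count of 13 was 5 with total counts only (4.31% of all tested genes called higher, against 7.5% as reported), 8 without a filter on low counts (3.51% of 20421 genes), 3 with sex as a covariate (3.33%) and 0 in females alone (0.3%). The Mrps count of 5 was 12 with DESeq2 (12.3%), 3 with limma-voom (6.45%), 3 with sex as a covariate and 0 in females alone. With 1 library left out the Mrpl count ranged from 0 to 10 and the Mrps count from 0 to 7, over which all genes called ranged from 397 to 2215. In females alone 89 of all tested genes were called. With the replicate number as a block, 1 Mrpl and 1 Mrps gene were called, beside 1.71% of all tested genes called higher (556 genes called in all). Deviations of libraries with the same number correlated at 0.0944, -0.265, 0.269 and -0.14, and only number 3 correlated best with its own number. With 4 libraries per group, these values can neither show nor exclude a pairing. With DESeq2 17 Mrpl genes and 3202 genes in all were called, against 1957 with edgeR. With BAPN libraries thinned to the mean vehicle depth 9 Mrpl and 7 Mrps genes were called, beside 7.1% of all tested genes called higher. The 0 calls between sexes stayed under every alternative run. Apart from the loss of samples or added terms, the causes were not tested. The 4 names that were not tested have too few reads for a direction.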
